A study of Mus musculus with 16 samples.

Results

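The genes described here are 35 mouse genes of glycolysis and of the response to low oxygen, chosen by name. They are 4 transporters of glucose and lactate, 17 glycolytic enzymes, 4 kinases that set the flow through glycolysis, 3 genes of oxygen sensing and 7 further targets of the hypoxia-inducible factor (HIF). Every protein-coding row of the deposited tables with one of these symbols was taken, which gave 36 rows, because Aldoa stands under 2 Ensembl IDs. The tables of sequencing projects 1, 2 and 3 hold 18326, 17811 and 18112 protein-coding rows in all.

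The 16 libraries came from mouse E14 embryonic stem cells, a feeder-independent line, kept in serum with leukaemia inhibitory factor and the inhibitors CHIR99021 and PD0325901. In 14 of them, RNA made during a 15 min pulse of the uridine analogue 4-thiouridine (4sU) was purified and sequenced, from cells of the AID-Zzz3, AID-Tada3, AID-Yeats2 and Supt7l-/- lines and from wild-type (WT) cells of each project, with 2 libraries a group. The other 2 libraries held total RNA of the project 1 WT cells. Every line, WT and Supt7l-/- included, had received auxin (IAA) for 24 h, which causes degradation of proteins fused to an auxin-inducible degron (AID), and no cells without auxin were analysed here. AID-Tada3 was compared with the WT 4sU libraries of project 1, AID-Yeats2 and Supt7l-/- with the same 2 WT 4sU libraries of project 2, and AID-Zzz3 with those of project 3. Each mutant group is a pair of clones. Each WT group is an unmodified line (replicate 1) and a line that overexpresses Tir1/BirA (replicate 2), so the spread between WT libraries includes that between lines, and p-values measure the spread between these libraries only. Tada3 belongs to the acetyltransferase module that the coactivators SAGA and ATAC share, Yeats2 and Zzz3 belong to ATAC, and Supt7l to the core of SAGA.

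The 4sU libraries held 8268061 to 15994518 mouse gene reads and the total RNA libraries 4903998 and 6378707. Values are CPM, read counts brought to a common library total with TMM scaling, which centres fold changes on the typical gene. In all 14 4sU libraries the naive pluripotency markers summed to 2666 to 3270 CPM, with 12 of 13 in the tables. The marker lists of primitive endoderm, trophoblast, fibroblasts, endothelial cells and erythroid cells summed to 8.80 to 23.6, 28.1 to 38.5, 1.91 to 16.9, 107.9 to 219 and 0 to 1.13 CPM. Reads of Tada3 numbered 12.2 and 10.5 CPM in AID-Tada3 clones against 31.3 and 23.9 CPM in WT, and those of Zzz3 288 and 300 CPM in AID-Zzz3 clones against 430 and 448 CPM in WT. Reads of Yeats2 numbered 109 and 188 CPM in AID-Yeats2 clones against 242 and 256 CPM in WT, and those of Supt7l 8.87 and 14.1 CPM in Supt7l-/- clones against 13.9 and 14.3 CPM in WT. A degron acts on protein, and counts over a whole gene do not show which part of it was transcribed, so these values check the labels only in part. In bulk RNA, fewer cells of a type and less RNA per cell cannot be told apart.

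Glycolysis splits glucose into pyruvate, which lactate dehydrogenase turns into lactate and which pyruvate dehydrogenase passes to mitochondria unless its kinases block it. When oxygen is scarce, prolyl hydroxylases of the Egln family stop marking HIF alpha subunits for destruction, and HIF binds a short core next to many genes of glucose uptake, glycolysis, iron use, collagen modification and mitochondrial turnover. Naive embryonic stem cells are known to use both glycolysis and respiration, and primed cells to lean on glycolysis.

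The HIF binding core is ACGTG or GCGTG, searched on both strands, so that the palindrome CACGTG counts once on each. Promoters, taken as the 250 bases before a RefSeq transcript start on GRCm38.p6, were matched for 33 of the 35 symbols and numbered 49. Of these, 46.9% held ACGTG, against 16.6% of all 32851 RefSeq promoters, and 55.1% held GCGTG, against 28.2%. Either core stood in at least 1 promoter of 30 of the 33 genes (90.9%), against 41.5% of 27025 genes. The background took every RefSeq promoter, without a limit to protein-coding genes and unmatched for base composition, while both cores contain CG. The members also include genes named as HIF targets, so the higher shares are a description. A match describes letters, not binding. The promoters of the 3 members that passed the test against WT in a mutant, and of Bnip3, whose fold change was the highest of the members in both ATAC mutants, are given here 5′ to 3′ in the sense of the gene, with each core or its reverse complement in capitals. They are chrX:106186850-106187099 on the plus strand for Pgk1, chr6:142507958-142508207 on the minus strand for Ldhb, chr11:54100674-54100923 on the plus strand for P4ha2 and chr7:138909507-138909756 on the minus strand for Bnip3.
Pgk1: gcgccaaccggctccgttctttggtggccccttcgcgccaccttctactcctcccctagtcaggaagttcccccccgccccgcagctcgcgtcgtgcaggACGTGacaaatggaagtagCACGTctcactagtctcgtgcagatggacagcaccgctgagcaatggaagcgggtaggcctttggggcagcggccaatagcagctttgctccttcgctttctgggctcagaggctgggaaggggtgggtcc
Ldhb: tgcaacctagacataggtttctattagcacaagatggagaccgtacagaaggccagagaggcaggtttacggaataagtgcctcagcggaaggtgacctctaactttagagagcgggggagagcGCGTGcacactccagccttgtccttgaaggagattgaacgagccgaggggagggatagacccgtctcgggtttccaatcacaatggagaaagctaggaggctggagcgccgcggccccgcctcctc
P4ha2: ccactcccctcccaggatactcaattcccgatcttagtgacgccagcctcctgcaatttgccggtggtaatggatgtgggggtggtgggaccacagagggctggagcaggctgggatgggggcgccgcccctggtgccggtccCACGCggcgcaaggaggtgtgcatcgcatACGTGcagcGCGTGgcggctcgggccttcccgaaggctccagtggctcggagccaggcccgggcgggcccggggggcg
Bnip3: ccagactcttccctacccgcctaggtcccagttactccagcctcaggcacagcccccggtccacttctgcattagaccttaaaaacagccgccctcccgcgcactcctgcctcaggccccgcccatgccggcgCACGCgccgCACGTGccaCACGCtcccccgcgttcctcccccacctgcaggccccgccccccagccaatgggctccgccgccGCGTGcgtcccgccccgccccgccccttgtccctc
The cores began 150 and 131 bases before the RefSeq start in Pgk1, 126 bases before it in Ldhb, and 107, 78 and 69 bases before it in P4ha2. The deposited span of P4ha2 begins at chr11:54100095, upstream of the printed window, so the window lies inside the annotated gene. Bnip3 held 5 matches, at 117, 108, 107, 99 and 35 bases, of which those at 108 and 107 are the strands of a single CACGTG.

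In WT cells the members covered a wide range of newly made RNA. Per kilobase of the deposited median transcript length, the lysine demethylase Kdm3a stood highest, with 544 and 548 CPM per kb in the project 1 WT 4sU libraries. The neuronal-type glucose transporter Slc2a3, which embryonic stem cells also use, had 453 and 527 CPM per kb, and the pyruvate kinase Pkm 420 and 497. Slc2a3 and Pkm overlapped, and Kdm3a lay above both. A gap separated them from the enolase Eno1 (169 and 225), the glucose transporter Slc2a1 (173 and 220) and Gapdh (176 and 198), whose ranges overlapped. Lowest were Egln3, an oxygen-sensing prolyl hydroxylase, with 0.873 and 1.36 CPM per kb, and Ankrd37, with 2.39 and 1.81. The divisor is a median over annotated transcripts (574 bases for Slc2a3, 872.5 for Kdm3a and 2662 for Egln3) and does not account for genomic span. The order therefore depends in part on annotation. Before division, in the joint scaling of all 4sU libraries, Egln3 had 2.26 and 3.49 CPM in project 1 WT, above Ankrd37 with 1.82 and 1.37. Over the 6 WT 4sU libraries of the 3 projects, the highest library exceeded the lowest by less than 1.5-fold in 18 of 36 rows and by more than 2-fold in 9, with a median ratio of 1.49. The widest ratio, 9.24, was that of the lactate exporter Slc16a3, which had 0.289 to 2.67 CPM.

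Several members share sequence with other genes, and how the counting treated reads that fit more than 1 gene is not given in the sources used here. Of the 50-base windows in the GENCODE M21 transcripts of Pgk1, 53.9% recur in transcripts of 5 other genes, all pseudogenes. The share was 47.2% for Bnip3, 36.2% for Pgam1, 26.0% for Eno1, 25.8% for Pkm, 25.1% for Gapdh and 21.0% for Ldhb, but 0.244% for P4ha2. In all, 10 of 36 rows shared at least 10% and 17 shared under 1%. Values of the rows above 10% are uncertain. The share of windows does not bound the error in counts, whose size was not tested. A gene on the opposite strand overlaps 14 rows, Bnip3, Tpi1, Gapdh and both Aldoa IDs among them, but not Pgk1, Pgam1, Ldhb, P4ha2 or Kdm3a. Whether counting used strand is not given either, so reads of a gene and its antisense partner may be mixed.

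In AID-Tada3 clones, depleted of an acetyltransferase subunit of both coactivators, none of the 36 rows passed the test. With edgeR's quasi-likelihood test at an adjusted p of 0.05, 0 members were higher, against 0% of the 15099 genes tested, and 0 were lower, against 0.0331%. At an unadjusted p under 0.05 there were 3 members, Slc16a3, Pfkp and Eno2, against 8% of genes, and DESeq2 also called 0 members, against 0.053% of genes higher and 0.159% lower. The median log2 fold change of the members was 0.02, against -0.00 over all genes, with 19 above 0 and 17 below. Both clones lay above both WT libraries in 6 rows (19.3% of all genes) and below them in 6 rows (20.3%). Without WT replicate 2, the Tir1/BirA library, members were called on both sides, and the share of all genes called in that fit was not counted. The log2 fold change of Ldhb was 1.04 in that fit and 0.11 without WT replicate 1.

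Among the transporters, Slc2a1 had 159 and 154 CPM in AID-Tada3 clones against 118 and 147 CPM in WT (log2 fold change 0.24 ± 0.11, standard error as throughout). Slc16a3 had 1.00 and 1.10 CPM in AID-Tada3 clones against 1.70 and 2.67 CPM in WT (-1.04 ± 0.38), from 15 and 18 reads against 27 and 39. The clones did not overlap WT in either gene, yet adjusted p was 0.623 and 0.547. Among the enzymes, the values were spread between the neuronal enolase Eno2, with 1.07 and 1.16 CPM in AID-Tada3 clones against 2.52 and 1.57 CPM in WT (-0.87 ± 0.38), and the lactate dehydrogenase subunit Ldhb, with 69.1 and 70.8 CPM in AID-Tada3 clones against 34.3 and 64.6 CPM in WT (0.50 ± 0.35). For Ldhb the WT libraries differed from each other by more than the nearer of them differed from the clones. All 4 regulatory kinases had fold changes above 0, lowest for Pfkfb4, which makes and degrades the activator fructose-2,6-bisphosphate, and highest for Pdk1, which inhibits pyruvate dehydrogenase. Pfkfb4 had 13.5 and 14.4 CPM in AID-Tada3 clones against 14.9 and 12.2 CPM in WT (0.04 ± 0.16), and Pdk1 had 25.7 and 22.8 CPM in AID-Tada3 clones against 11.1 and 20.6 CPM in WT (0.62 ± 0.29, adjusted p = 0.641, edgeR).

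The oxygen-sensing genes overlapped between AID-Tada3 and WT. The hydroxylase Egln1 had 28.1 and 26.5 CPM in AID-Tada3 clones against 32.9 and 27.3 CPM in WT (-0.14 ± 0.13), and Egln3 3.35 and 3.79 CPM in AID-Tada3 clones against 2.27 and 3.49 CPM in WT (0.32 ± 0.29). Hif1a, the regulated HIF subunit, had a log2 fold change of 0.02 ± 0.09. Of the other targets, the collagen prolyl hydroxylase P4ha1 had 40.3 and 42.1 CPM in AID-Tada3 clones against 37.8 and 42.7 CPM in WT (0.03 ± 0.11), and Ankrd37 1.00 and 0.918 CPM in AID-Tada3 clones against 1.83 and 1.37 CPM in WT (-0.73 ± 0.38), the lowest of the 7. No role group of the members held a row past the threshold.

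Newly made Pgk1 RNA was lower in clones depleted of the ATAC subunit Yeats2. Pgk1, at chrX:106187100-106203699, encodes phosphoglycerate kinase, the enzyme of the ATP-making step that follows Gapdh. It had 21.4 and 22.7 CPM in AID-Yeats2 clones against 30.6 and 35.5 CPM in WT, from 207 and 224 reads against 317 and 332. Both clones lay below both WT libraries, with a log2 fold change of -0.58 ± 0.13 and an adjusted p of 0.0126 (edgeR). Of 34 members tested, Pgk1 was the single row called lower, against 3.32% of 14513 genes, and 0 were called higher, against 3.92%. DESeq2 gave the same counts, against 1.85% of genes lower and 2.27% higher, and 10 members had an unadjusted p under 0.05, against 21.3% of genes. The call did not hold without AID-Yeats2 clone 1 (-0.53) or clone 2 (-0.62). More members were called without WT replicate 1 or 2, and the share of all genes called in those fits was not counted. The 7 primitive endoderm markers summed to 20.4 and 16.1 CPM in AID-Yeats2 clones against 13.1 and 11.5 CPM in WT. The 5 endothelial markers summed to 182 and 167 CPM in AID-Yeats2 clones against 151 and 136 CPM in WT. Most of that was Pecam1 (131 and 115 CPM in clones against 116 and 115 in WT) and Tek (41.3 and 43.9 against 26.0 and 16.5). Cdh5 and Emcn each stood at 0 and 0.102 CPM in the clones. The part of these markers in the values was not tested. Pgk1 differed by 0.31 ± 0.09 between the Tir1/BirA and the plain WT line (adjusted p = 0.163, edgeR).

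Over the 34 members tested in AID-Yeats2, Pgk1 included, 25 fold changes were negative and the median was -0.11, against -0.00 over all genes. Both clones lay below both WT libraries in 12 rows, Pgk1 among them (25.8% of genes), and above them in 4 (25.3%). Pgam1, the phosphoglycerate mutase that acts after Pgk1, had 21.0 and 21.1 CPM in AID-Yeats2 clones against 28.2 and 26.9 CPM in WT (-0.39 ± 0.12, adjusted p = 0.06, edgeR). The aldolase Aldoa held both ends of the enzyme group, through its 2 IDs, which lie side by side on the minus strand of chromosome 7. The main ID (ENSMUSG00000030695, chr7:126795234-126800751) had 72.0 and 62.7 CPM in AID-Yeats2 clones against 54.2 and 56.1 CPM in WT (0.29 ± 0.10). The upstream ID (ENSMUSG00000114515, chr7:126800790-126809108) had 1.65 and 2.03 CPM in AID-Yeats2 clones against 3.58 and 3.74 CPM in WT (-0.98 ± 0.32). Neither passed the test, with adjusted p of 0.0965 and 0.0785.

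In the smaller role groups, the lactate carrier Slc16a1 had 51.1 and 48.5 CPM in AID-Yeats2 clones against 56.4 and 58.7 CPM in WT (-0.21 ± 0.09), and Slc2a3 had 248 and 275 CPM in AID-Yeats2 clones against 240 and 299 CPM in WT (-0.04 ± 0.10). The pyruvate dehydrogenase kinase Pdk3 had 68.8 and 77.6 CPM in AID-Yeats2 clones against 85.4 and 87.6 CPM in WT (-0.24 ± 0.09), and Pfkfb3, a sister enzyme of Pfkfb4, had 21.0 and 20.8 CPM in AID-Yeats2 clones against 22.6 and 19.8 CPM in WT (-0.02 ± 0.13). Slc16a1 and Pdk3 did not overlap WT, and Slc2a3 and Pfkfb3 did. Hif1a had 92.2 and 97.6 CPM in AID-Yeats2 clones against 112 and 101 CPM in WT (-0.17 ± 0.08), and Egln3 had 4.65 and 4.26 CPM in AID-Yeats2 clones against 2.71 and 3.53 CPM in WT (0.52 ± 0.27). The mitophagy receptor Bnip3 had 4.75 and 4.77 CPM in AID-Yeats2 clones against 2.42 and 2.89 CPM in WT, from 46 and 47 reads against 25 and 27 (0.85 ± 0.27, adjusted p = 0.0791, edgeR). Its relative Bnip3l had 39.7 and 43.1 CPM in AID-Yeats2 clones against 54.3 and 44.1 CPM in WT (-0.25 ± 0.11). The clones lay apart from WT in both of these genes, on opposite sides. Slc16a3 and Ankrd37 were too low to test in project 2, with 8 and 6 and with 7 and 10 reads in AID-Yeats2 clones, against 3 and 11 and against 9 and 9 reads in WT.

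**Figure D1:**
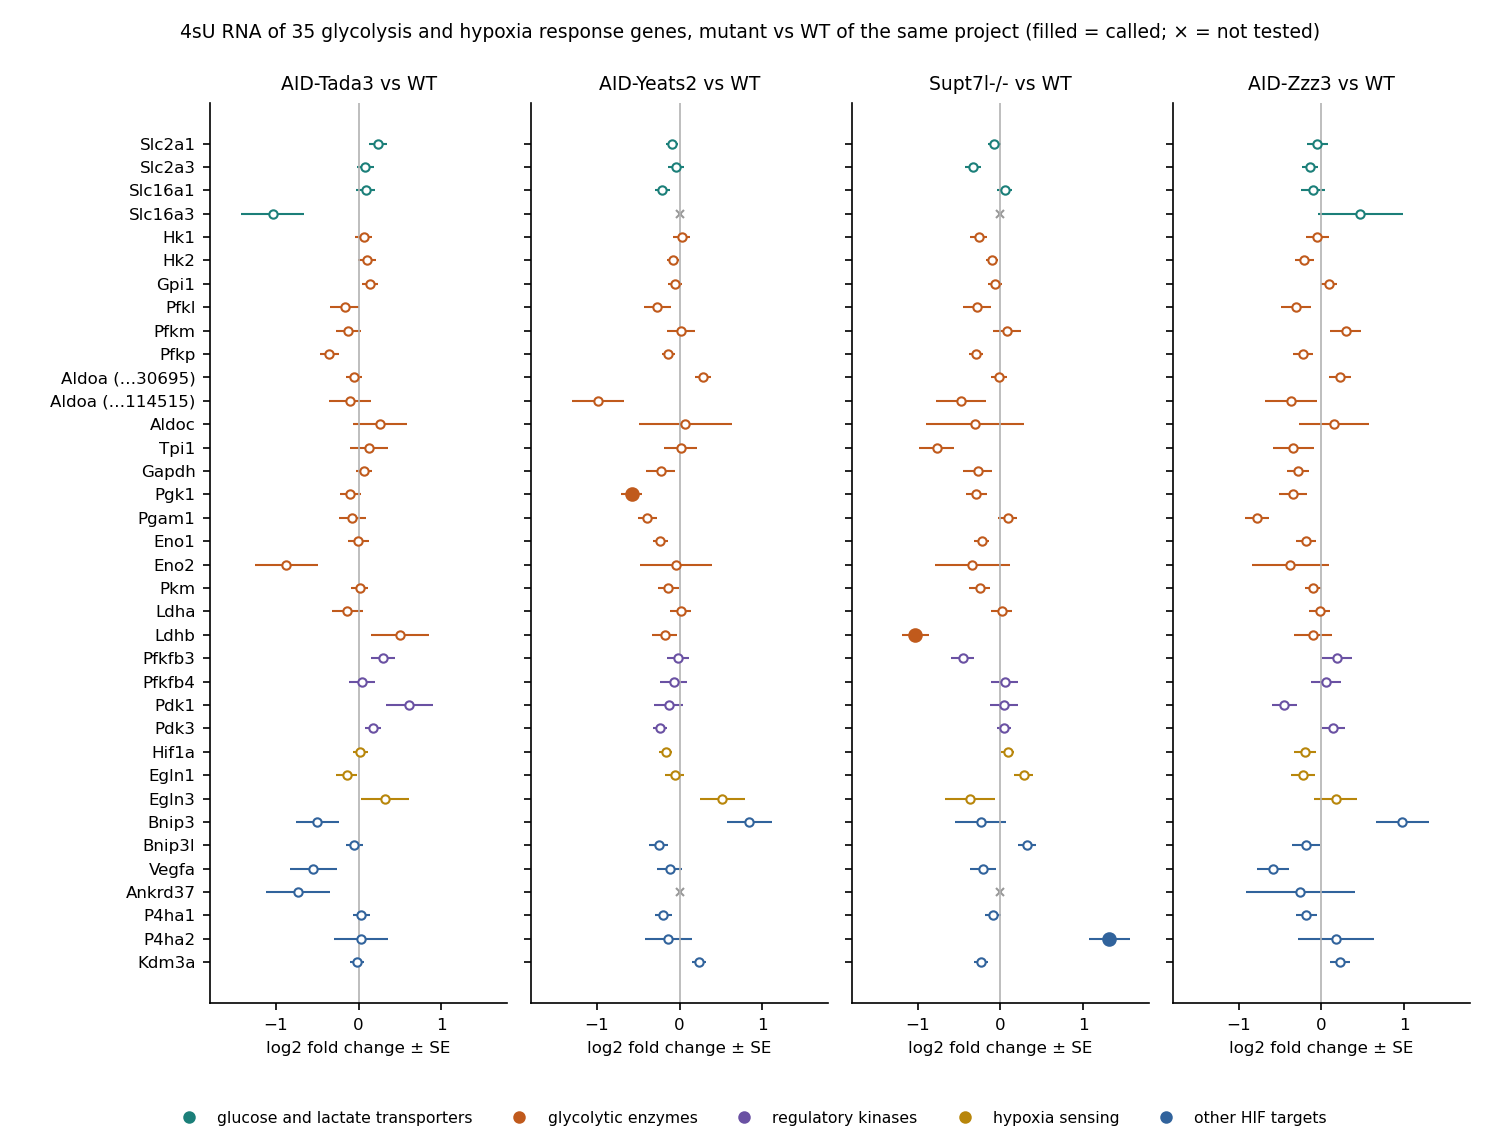
Log2 fold change (x axis, TMM scaling) of each member (y axis, grouped by role) in each mutant against the WT 4sU libraries of its project, with bars of 1 standard error and filled points where the adjusted p was under 0.05. Pgk1 in AID-Yeats2 (-0.58), Ldhb in Supt7l-/- (-1.03) and P4ha2 in Supt7l-/- (1.32) are the filled points.

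In Supt7l-/- clones, which lack a core subunit of SAGA, Ldhb was lower and P4ha2 higher than in WT. Ldhb, at chr6:142490249-142507957, encodes the lactate dehydrogenase subunit that favours pyruvate formation, and had 25.7 and 25.3 CPM in Supt7l-/- clones against 42.8 and 61.6 CPM in WT, from 226 and 240 reads against 443 and 576. P4ha2, at chr11:54100095-54131665, encodes the catalytic subunit of a collagen prolyl hydroxylase, and had 8.08 and 7.69 CPM in Supt7l-/- clones against 2.80 and 3.53 CPM in WT, from 71 and 73 reads against 29 and 33. Neither gene's clones overlapped WT. The log2 fold change was -1.03 ± 0.16 for Ldhb (adjusted p = 0.00713) and 1.32 ± 0.25 for P4ha2 (adjusted p = 0.00942, edgeR), 1 member of 34 lower, against 2.02% of 14513 genes, and 1 higher, against 1.32%. Ldhb was also the single member that differed between the WT lines, by 0.68 ± 0.10 in Tir1/BirA over plain cells (adjusted p = 0.0144, edgeR), where 0.444% of 14647 genes were called higher and 0.785% lower. Against the plain WT library alone its log2 fold change in Supt7l-/- was -0.75, and against the Tir1/BirA WT library alone -1.27. Both calls ended in the joint fit of all 14 libraries (adjusted p = 0.247 for Ldhb and 0.1 for P4ha2), without Supt7l-/- clone 1 (0.154 and 0.147) and without clone 2 (0.129 and 0.0935), and that of P4ha2 under spike-in scaling (0.95, adjusted p = 0.0849). DESeq2 also called 1 higher and 1 lower, against 0.91% and 1.67% of genes. More members were called lower without WT replicate 1 or 2, and the share of all genes called in those fits was not counted.

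The glycolytic enzymes of Supt7l-/- clones leaned below WT as a group. Of 18 enzyme rows, 15 had fold changes below 0, with a median of -0.27, against -0.00 over all genes tested, and 9 rows had both clones below both WT libraries. Over all 34 members tested, 23 fold changes were negative, the median was -0.22, and the clones lay below WT in 17 rows (24.4% of genes) and above in 7 (24%). Only Ldhb of the enzymes passed the test, so the lean is a description. It was not particular to these clones. In AID-Zzz3, 14 of 18 enzyme rows were negative, with a median of -0.19, and 9 had both clones below both WT libraries. The same values were 12, -0.11 and 6 in AID-Yeats2, and 10, -0.03 and 3 in AID-Tada3. Members also differed between the WT lines. In Tir1/BirA over plain WT, 23 of 36 fold changes were positive, with a median of 0.12. Of these 36 members, 9 had an unadjusted p under 0.05 (edgeR), against 13.9% of genes. The part of this line difference in the lean of the Supt7l-/- clones was not tested. Marker lists moved in the same clones. The primitive endoderm markers summed to 23.6 and 18 CPM in Supt7l-/- clones against 13.1 and 11.5 CPM in WT, most of it Dab2 (15 and 10.8 CPM in Supt7l-/- clones against 7.68 and 5.80 CPM in WT), while Sox17 stood at 0 in both clones. The naive pluripotency markers summed to 2764 and 2666 CPM in Supt7l-/- clones against 2958 and 3146 CPM in WT. Their part in the lower enzyme values was not tested. Next to Ldhb stood Tpi1, which interconverts the triose phosphates, with 6.82 and 6.32 CPM in Supt7l-/- clones against 9.18 and 13.4 CPM in WT (-0.77 ± 0.21, adjusted p = 0.0626, edgeR). Tpi1 read 0.57 ± 0.15 higher in Tir1/BirA than in plain WT cells (adjusted p = 0.111, edgeR), and the part of this in the lower values of the clones was not tested. At the other end Pgam1 had 28.5 and 30.0 CPM in Supt7l-/- clones against 28.2 and 26.9 CPM in WT (0.09 ± 0.11), just above WT.

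Of the transporters in Supt7l-/-, Slc2a3 had 206 and 222 CPM in clones against 240 and 299 CPM in WT (-0.33 ± 0.10), below both WT libraries, and Slc16a1 had 61.1 and 58.3 CPM in clones against 56.4 and 58.7 CPM in WT (0.05 ± 0.09), overlapping them. Pfkfb3 had 16.4 and 14.5 CPM in Supt7l-/- clones against 22.6 and 19.8 CPM in WT (-0.46 ± 0.14, adjusted p = 0.0919, edgeR), and Pfkfb4 had 11 and 11.5 CPM in Supt7l-/- clones against 10.8 and 10.9 CPM in WT (0.05 ± 0.17). The clones lay below both WT libraries for Pfkfb3. For Pfkfb4 they lay just above them, by less than the standard error. Among the oxygen-sensing genes, Egln3 had 2.27 and 2.53 CPM in Supt7l-/- clones against 2.71 and 3.53 CPM in WT (-0.37 ± 0.30), and Egln1 had 34.0 and 34.7 CPM in Supt7l-/- clones against 29.6 and 27.0 CPM in WT (0.28 ± 0.11). Egln3 lay below and Egln1 above both WT libraries, and neither passed the test. Kdm3a, a demethylase that is itself a HIF target, had 394 and 411 CPM in Supt7l-/- clones against 426 and 523 CPM in WT (-0.24 ± 0.09), the lowest of the other HIF targets. Slc16a3 had 7 and 9 reads in Supt7l-/- clones and Ankrd37 5 and 8, too few to test.

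In clones depleted of Zzz3, another ATAC subunit, no member passed the test. By edgeR 0 of 36 rows were higher, against 0.681% of 14529 genes, and 0 were lower, against 0.303%. At an unadjusted p under 0.05 there were 4, Pgam1, Pdk1, Bnip3 and Vegfa, against 12.9% of genes. DESeq2 called 1 lower, Pgam1, with an adjusted p of 0.0304, and 0 higher, against 0.626% and 1.17% of genes. Pgam1 had 16.2 and 17.0 CPM in AID-Zzz3 clones against 29.8 and 27.2 CPM in WT, with a log2 fold change of -0.78 ± 0.14 and an adjusted p of 0.0566 by edgeR, and the alternatives split. It passed in the joint fit (adjusted p = 0.00578), without a filter on low counts (0.00025) and without WT replicate 2 (-0.85, adjusted p = 0.018), but not with at least 50 counts (0.0699), without AID-Zzz3 clone 1 (0.323) or clone 2 (0.163), or without WT replicate 1 (0.0899). The members' median was -0.12, against 0.00 over all genes, with 24 of 36 fold changes negative. The clones lay below WT in 14 rows (21.9% of genes) and above in 5 (22.8%).

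The remaining ends of the AID-Zzz3 role groups were small or variable. Pfkm, the muscle-type phosphofructokinase, had 11.8 and 10.7 CPM in AID-Zzz3 clones against 8.88 and 9.43 CPM in WT (0.30 ± 0.19). Slc2a3 had 216 and 228 CPM in AID-Zzz3 clones against 243 and 246 CPM in WT (-0.14 ± 0.09), and Slc16a3 had 0.718 and 1.30 CPM in AID-Zzz3 clones against 0.939 and 0.56 CPM in WT (0.47 ± 0.51). Pdk1 had 24.5 and 19.9 CPM in AID-Zzz3 clones against 31.0 and 29.5 CPM in WT (-0.45 ± 0.15), and Pfkfb3 had 25 and 19.6 CPM in AID-Zzz3 clones against 21.6 and 17.3 CPM in WT (0.19 ± 0.19). Of these, Pfkm lay above WT, Slc2a3 and Pdk1 lay below it, and the others overlapped. Egln1 had 23.8 and 25.4 CPM in AID-Zzz3 clones against 31.2 and 26.3 CPM in WT (-0.22 ± 0.15), and Egln3 had 5.75 and 4.66 CPM in AID-Zzz3 clones against 4.01 and 5.14 CPM in WT (0.17 ± 0.26). Vegfa, the angiogenic growth factor, had 8.50 and 7.49 CPM in AID-Zzz3 clones against 12.1 and 11.8 CPM in WT (-0.59 ± 0.19, adjusted p = 0.255, edgeR). Bnip3 had 5.03 and 4.43 CPM in AID-Zzz3 clones against 1.79 and 2.99 CPM in WT, from 42 and 58 reads against 21 and 32 (0.98 ± 0.32, adjusted p = 0.258, edgeR). Bnip3 lay above WT and Vegfa below it, at opposite ends of the HIF targets.

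**Figure D2:**
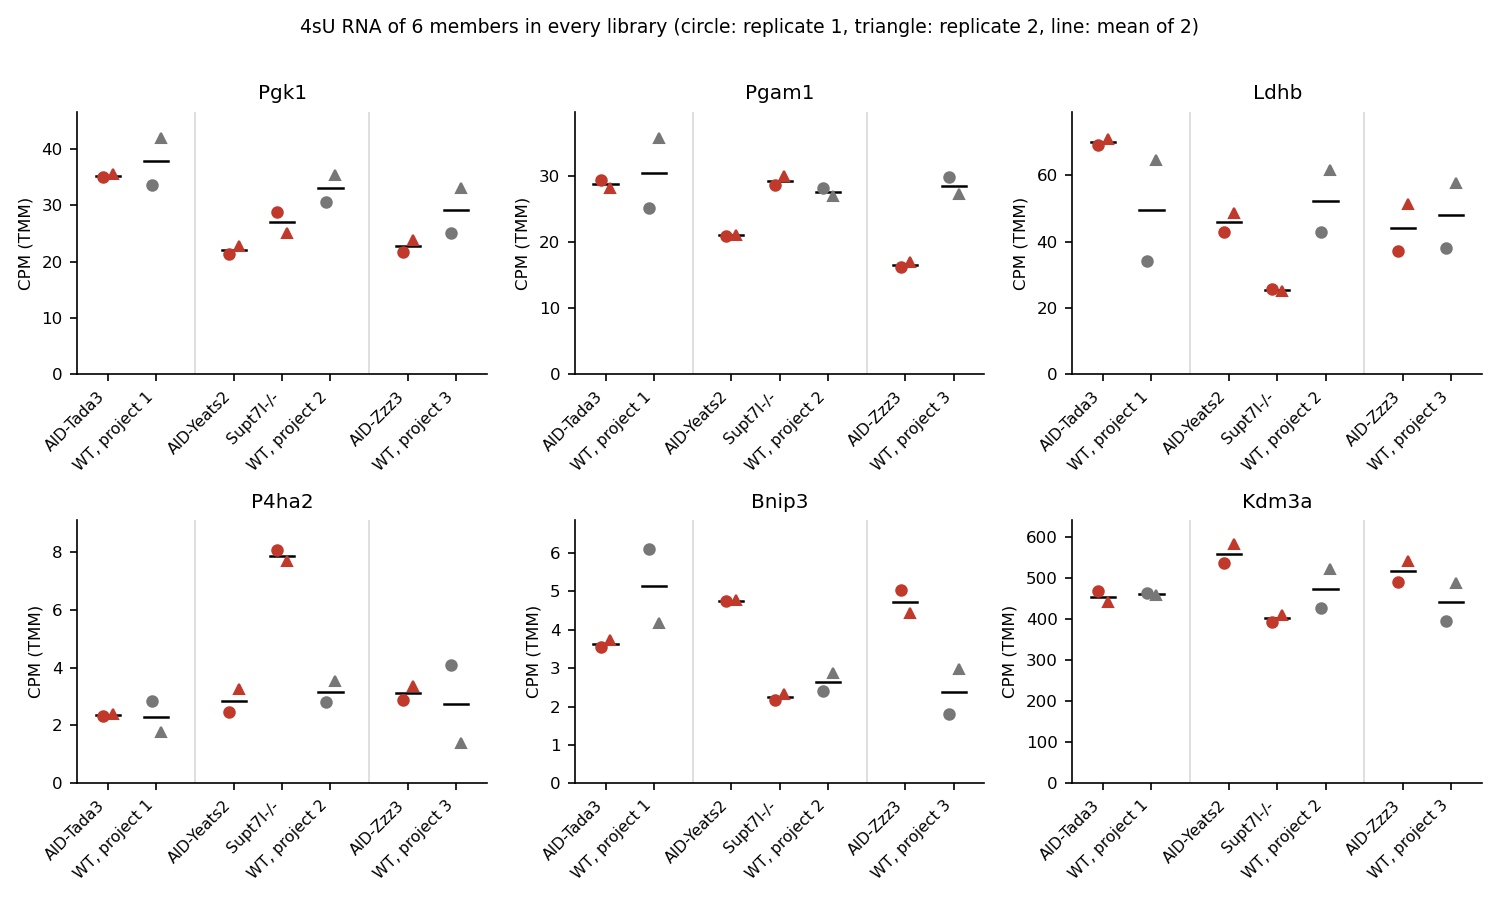
CPM (y axes, TMM scaling) of Pgk1, Pgam1, Ldhb, P4ha2, Bnip3 and Kdm3a in each 4sU library, with mutant clones in red left of the WT libraries of their project in grey and black lines at group means. Ldhb sat at 25.7 and 25.3 in Supt7l-/- clones against 42.8 and 61.6 in WT, and P4ha2 at 8.08 and 7.69 against 2.80 and 3.53.

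The ATAC mutants AID-Yeats2 and AID-Zzz3, each with its own WT libraries, were set side by side. Bnip3 read 0.85 ± 0.27 over WT in AID-Yeats2 and 0.98 ± 0.32 over WT in AID-Zzz3, Pgam1 -0.39 ± 0.12 and -0.78 ± 0.14, Pgk1 -0.58 ± 0.13 and -0.35 ± 0.17, and Kdm3a 0.24 ± 0.09 and 0.23 ± 0.12. In a joint fit of the 14 libraries, 0 of 36 members differed in effect between these mutants, and 0 of 15426 genes did, with 1 member and 2.45% of genes at an unadjusted p under 0.05. DESeq2 also called 0 members. That does not show equal effects, since the standard error of the difference was 0.41 for Bnip3 and 0.21 for Pgam1. The effect of AID-Tada3 differed from that of AID-Yeats2, Supt7l-/- and AID-Zzz3 in 0 members each, and that of Supt7l-/- from AID-Zzz3 in 0, with 7, 6, 5 and 7 at an unadjusted p under 0.05. Of all genes, 0.357%, 0.013%, 0.207% and 0.434% were called higher in these contrasts in the same order, 1.08%, 0.00648%, 0.836% and 0.81% lower, and 14.3%, 10.4%, 12.6% and 15% had such a p. Nearest to the threshold was Pgam1, 0.87 ± 0.21 higher in the Supt7l-/- than in the AID-Zzz3 effect (adjusted p = 0.0504), then Bnip3, whose effect in AID-Tada3 (-0.50 ± 0.26) was below that in AID-Zzz3 by 1.47 ± 0.38 on the log2 scale (adjusted p = 0.0785, edgeR). Bnip3 also varied between WT libraries. In the joint scaling it had 6.09 and 4.18 CPM in project 1 WT, 2.41 and 2.87 in project 2 WT, and 1.82 and 3.02 in project 3 WT. Project 1 WT, the reference of AID-Tada3, thus read above the other WT libraries. The part of this in the Bnip3 effects was not tested.

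AID-Yeats2 and Supt7l-/- clones, sequenced in the same project, were compared directly, with the spread estimated from all its 4sU libraries, WT included. They differed in 12 of 34 members, 7 higher in AID-Yeats2, against 8.95% of 14513 genes, and 5 lower, against 7.32%. DESeq2 called 4, 2 higher (5.6% of genes) and 2 lower (4.02%). Spike-in scaling gave 1, P4ha2, which was lower (2.69% of genes, with 2.29% higher). Leaving out any 1 of the 4 clones also gave fewer calls, and the share of all genes called in those fits was not counted. P4ha2 had 2.48 and 3.25 CPM in AID-Yeats2 clones against 8.08 and 7.69 CPM in Supt7l-/- clones (-1.45 ± 0.25, adjusted p = 0.00162, edgeR). Bnip3l had 39.7 and 43.1 CPM in AID-Yeats2 clones against 63.4 and 60.2 CPM in Supt7l-/- clones (-0.58 ± 0.11, adjusted p = 0.00286, edgeR), whereas its paralogue Bnip3 had 4.75 and 4.77 CPM in AID-Yeats2 clones against 2.16 and 2.32 CPM in Supt7l-/- clones (1.08 ± 0.28, adjusted p = 0.0183, edgeR). These mitophagy receptors thus differed in opposite directions, but the Bnip3 call ended with DESeq2 (adjusted p = 0.131), with spike-in scaling (0.154) and without any 1 of the 4 clones (0.0996 to 0.115). Kdm3a had 537 and 583 CPM in AID-Yeats2 clones against 394 and 411 CPM in Supt7l-/- clones (0.48 ± 0.09, adjusted p = 0.0038, edgeR), and Ldhb had 43.1 and 48.7 CPM in AID-Yeats2 clones against 25.7 and 25.3 CPM in Supt7l-/- clones (0.85 ± 0.16, adjusted p = 0.00551, edgeR). P4ha2, Bnip3l, Kdm3a and Ldhb were the 4 that DESeq2 also called. The sample titles do not say which clones carry Tir1/BirA, so a difference in line background cannot be told apart from one in mutation. Ldhb was the single member that differed between the WT lines (0.68 in Tir1/BirA over plain cells), and the part of this in its difference here was not tested.

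The other 7 calls were closer to the threshold, with adjusted p of 0.0135 to 0.0498 by edgeR. Tpi1 had 11.9 and 10.8 CPM in AID-Yeats2 clones against 6.82 and 6.32 CPM in Supt7l-/- clones, Egln3 4.65 and 4.26 against 2.27 and 2.53, Pfkfb3 21.0 and 20.8 against 16.4 and 14.5, and the main Aldoa ID 72.0 and 62.7 against 51.6 and 57.2. Pgam1 had 21.0 and 21.1 CPM in AID-Yeats2 clones against 28.5 and 30.0 CPM in Supt7l-/- clones, Pdk3 68.8 and 77.6 against 87.8 and 90.1, and Hif1a 92.2 and 97.6 against 111 and 115. The pairs of clones did not overlap in any of the 12 genes, nor in 10 further members (30.2% of all genes above and 31.5% below). Of the 12 genes, Ldhb and P4ha2 alone had also passed the test against WT, both in Supt7l-/-.

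Under scaling to the spike-in cells more members were called lower in each mutant. That scaling keeps a shift of the whole transcriptome, and moved the median of all genes to -0.16 in AID-Tada3, -0.50 in AID-Yeats2, -0.36 in Supt7l-/- and -0.36 in AID-Zzz3. The members' medians moved with it, to -0.14, -0.59, -0.58 and -0.49. Called lower by edgeR with this scaling were 1 member in AID-Tada3 (1.48% of genes), 16 in AID-Yeats2 (23.5%), 4 in Supt7l-/- (4.45%) and 14 in AID-Zzz3 (24.7%). Called higher were 0 in each, against 0.172%, 0.407%, 0.22% and 0.888%. Pgk1 in AID-Yeats2 was then at -1.07 (adjusted p = 0.00181), Ldhb in Supt7l-/- at -1.39 (adjusted p = 5.31e-06), Pgam1 in AID-Zzz3 at -1.14 (adjusted p = 0.0103) and Pfkp in AID-Tada3 at -0.53 (adjusted p = 0.0382). Bnip3 stayed above 0 on this scale, at 0.35 in AID-Yeats2 and 0.63 in AID-Zzz3, without passing the test. In the authors' deposited table, 0 of 36, 18 of 28, 8 of 28 and 14 of 27 members with an adjusted p were lower in AID-Tada3, in AID-Yeats2, in Supt7l-/- and in AID-Zzz3, in that order, and 0 were higher. Of all genes with an adjusted p in that table, 0.0559%, 48.9%, 8.86% and 35.7% were lower and 0.00699%, 0.369%, 0.0476% and 0.845% higher in the same order of mutants.

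**Figure D3:**
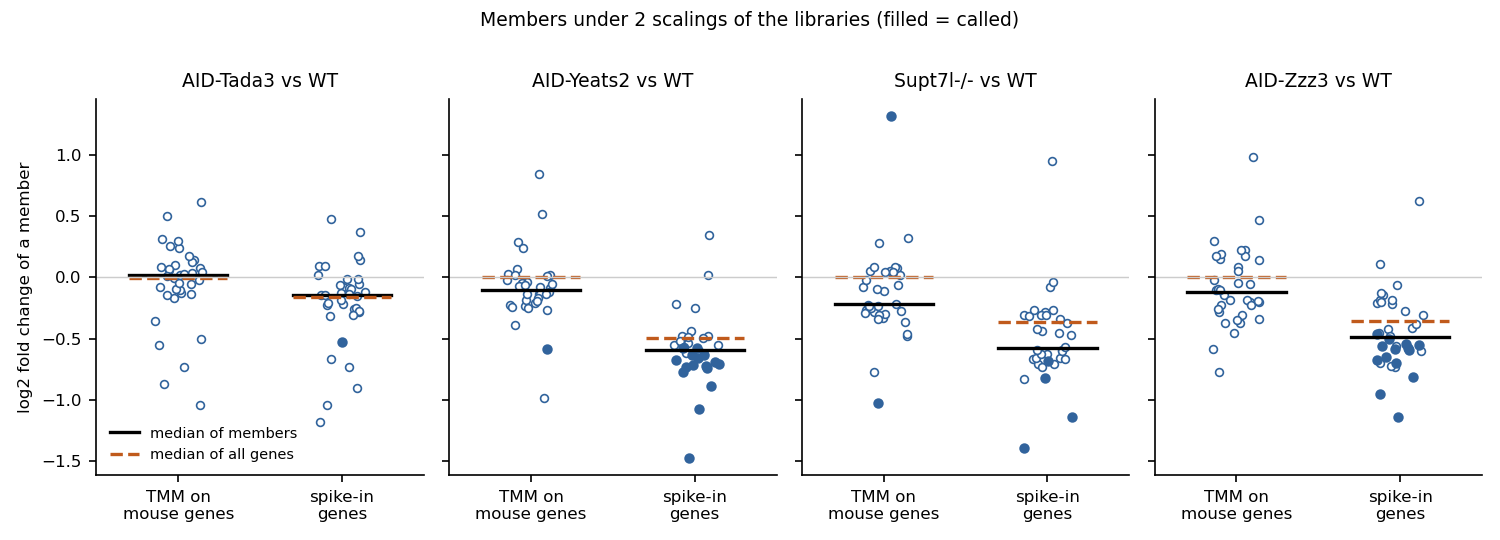
Log2 fold change of each member against WT (y axis) under TMM and under spike-in scaling (x axis) in each mutant, with a black line at the members' median and a dashed orange line at the median of all genes tested. In AID-Yeats2 the members' median lies at -0.11 under TMM and at -0.59 under spike-in scaling, where that of all genes lies at -0.00 and -0.50.

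Beyond the members, 95 further genes of the HIF machinery, HIF targets, glycolysis, pyruvate entry, the pentose phosphate pathway and gluconeogenesis were counted. None of 77 tested passed in AID-Tada3 (0% of all genes higher and 0.0331% lower). In AID-Yeats2 4 of 78 were higher (3.92% of all genes) and 0 lower (3.32%), in Supt7l-/- 1 of 78 was higher (1.32%) and 2 were lower (2.02%), and in AID-Zzz3 2 of 74 were higher (0.681%) and 0 lower (0.303%). Counts this small lie close to the background, and the genes are given one by one. Plod2, a collagen lysyl hydroxylase, had 99.4 and 107 CPM in AID-Yeats2 clones against 64.6 and 57.9 CPM in WT (0.75 ± 0.09, adjusted p = 0.000149), and 106 and 101 CPM in AID-Zzz3 clones against 57.3 and 52.9 CPM in WT (0.91 ± 0.11, adjusted p = 0.0188, edgeR). Epas1, the HIF-2 alpha subunit, had 43.8 and 39.7 CPM in AID-Yeats2 clones against 26.2 and 29.5 CPM in WT (0.59 ± 0.12, adjusted p = 0.00895), and 42.7 and 39.2 CPM in AID-Zzz3 clones against 25.7 and 22.0 CPM in WT (0.78 ± 0.14, adjusted p = 0.0479, edgeR). Both genes were thus higher in AID-Yeats2 and in AID-Zzz3, each against its own WT libraries. In AID-Tada3, which targets the module that ATAC shares with SAGA, neither passed. Plod2 had 64.7 and 63.7 CPM in AID-Tada3 clones against 77.4 and 64.4 CPM in WT (-0.14). Epas1 had 40.2 and 36.1 CPM in AID-Tada3 clones against 52.3 and 39.0 CPM in WT (-0.26). Under spike-in scaling Epas1 passed in neither AID-Yeats2 nor AID-Zzz3 (0.08 and 0.41), and Plod2 only in AID-Zzz3 (0.54). The Epas1 call in AID-Zzz3 also ended with at least 50 counts (adjusted p = 0.0549) and without clone 1 (0.313) or clone 2 (0.12), that in AID-Yeats2 without clone 1 (0.162), and that of Plod2 in AID-Zzz3 without clone 1 (0.101). The marker sums that were above WT in AID-Yeats2 were so in AID-Zzz3 too. Endothelial markers summed to 219 and 168 CPM in AID-Zzz3 clones against 136 and 115 CPM in WT, with Tek at 94.5 and 51.3 CPM in AID-Zzz3 clones against 25.9 and 17.5 CPM in WT, and Cdh5 at 0 and 0.154 CPM in the clones. Primitive endoderm markers summed to 19 and 18.6 CPM in AID-Zzz3 clones against 14.4 and 11.2 CPM in WT. Their part in the values of Plod2 and Epas1 was not tested. In Supt7l-/- the log2 fold changes were 0.17 for Plod2 and -0.43 for Epas1, and the direct difference of AID-Yeats2 from Supt7l-/- was 0.58 and 1.02 (adjusted p = 0.000504 and 0.000119, edgeR).

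Ddit4, an inhibitor of mTOR signalling, had 8.16 and 6.50 CPM in AID-Yeats2 clones and 6.94 and 7.26 CPM in Supt7l-/- clones, against 3.96 and 2.78 CPM in the WT libraries that both share (1.11 ± 0.25, adjusted p = 0.0149, and 1.06 ± 0.25, adjusted p = 0.0323, edgeR). The call in Supt7l-/- ended in 8 of 12 alternatives, among them DESeq2 (adjusted p = 0.0995), the joint fit (0.109) and spike-in scaling (0.187). That in AID-Yeats2 ended under spike-in scaling (0.61, adjusted p = 0.14) and without clone 1 (0.94, adjusted p = 0.204). In AID-Zzz3 its log2 fold change was 1.02 ± 0.27 (adjusted p = 0.148, edgeR). The Myc antagonist Mxi1 had 81.4 and 67.8 CPM in AID-Yeats2 clones against 59.8 and 54.7 CPM in WT (0.38 ± 0.10, adjusted p = 0.0388, edgeR), but -0.12 under spike-in scaling, and the call ended in 6 of 12 alternatives, DESeq2 (0.0967) and the joint fit (0.177) among them. The transferrin receptor Tfrc had 234 and 252 CPM in Supt7l-/- clones against 306 and 371 CPM in WT (-0.48 ± 0.09, adjusted p = 0.00834, edgeR), a call that ended in the joint fit (0.109) and without clone 1 (0.184) or clone 2 (0.0853). Rpe, an epimerase of the pentose phosphate pathway, had 132 and 121 CPM in Supt7l-/- clones against 159 and 212 CPM in WT (-0.55 ± 0.12, adjusted p = 0.0467, edgeR), and this call ended in 6 of 12 alternatives, among them at least 50 counts (0.0566), the joint fit (0.297) and the fits without clone 1 (0.203) or clone 2 (0.287).

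Newly made and total RNA of WT cells were compared in the project 1 libraries. Of 36 rows, 15 were lower in 4sU RNA, against 33% of 14494 genes, and 4 were higher, against 30.4%, by edgeR. In this fit, which did not pair the libraries by line, the lower share is near the background and the higher one below it, which was not tested. The median log2 fold change of 4sU over total RNA was -0.52 for the members and 0.05 over all genes. Libraries did not overlap in 29 rows, 23 with 4sU below (41.1% of genes) and 6 above (41.7%). By role, 10 of 18 enzyme rows and 3 of 4 transporters were lower, while 2 of 4 kinases and 1 of 3 oxygen-sensing genes were higher. With the line as a block, since the same WT lines gave both RNAs, 22 were lower and 6 higher, with Pgam1 and P4ha1 among the higher and Ldhb (-1.56) among the lower. The share of all genes called in the block fit was not counted, so these counts have no background beside them. Without WT 4sU replicate 2, fewer members were called higher, and the share of all genes was not counted there either.

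The main Aldoa ID stood furthest, with 60.6 and 58.2 CPM in WT 4sU RNA against 1158 and 1299 CPM in total RNA (-4.37 ± 0.17, adjusted p = 1.1e-05, edgeR). Tpi1 had 7.75 and 12.7 CPM in 4sU RNA against 116 and 210 CPM in total RNA (-3.99 ± 0.37, adjusted p = 0.000141, edgeR). Aldoc, the brain-type aldolase, had 1.81 and 1.49 CPM in 4sU RNA against 10.1 and 16.3 CPM in total RNA (-3.00 ± 0.36, adjusted p = 0.00027, edgeR), and the liver-type phosphofructokinase Pfkl had 15.4 and 21.9 CPM in 4sU RNA against 71.6 and 145 CPM in total RNA (-2.54 ± 0.36, adjusted p = 0.00102, edgeR). Each of these 4 lay far outside the spread of its libraries. Lower by more than 2 on the log2 scale were also Slc2a3 (-2.54), Ldha (-2.51) and Pkm (-2.04). Per kilobase of the same median transcript length, Slc2a3 led total RNA with 3078 and 2602 CPM per kb. Pkm followed with 1727 and 2038, and Aldoa with 1297 and 1455. Kdm3a, which led in 4sU RNA on this measure, had 586 and 654.

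At the other end, Pfkfb3 had 15.2 and 18.7 CPM in 4sU RNA against 8.75 and 8.31 CPM in total RNA (0.99 ± 0.23, adjusted p = 0.00654, edgeR). Gapdh, alone among the enzyme rows past the test on this side, had 99.4 and 112 CPM in 4sU RNA against 50.2 and 61.1 CPM in total RNA (0.92 ± 0.16, adjusted p = 0.00183, edgeR). Gapdh shares 50-base windows with 223 other genes, 213 of them pseudogenes, so its level in either RNA is uncertain. Hif1a had 103 and 118 CPM in 4sU RNA against 67.9 and 78.5 CPM in total RNA (0.59 ± 0.15, adjusted p = 0.0117, edgeR, and 0.0991 without WT 4sU replicate 2), and Pgam1 25.8 and 37.1 CPM in 4sU RNA against 19.1 and 22.9 CPM in total RNA (0.58 ± 0.23, adjusted p = 0.0574, edgeR). The ratio followed gene length in part. Over 12749 protein-coding genes its Spearman correlation with the genomic span was 0.72, and over the 36 member rows 0.32, where all points share the same 4 libraries. The 16 rows shorter than 20 kb had a median of -1.36, against -1.28 for all such genes, and the 20 longer rows -0.37, against 0.57. Total RNA was depleted of ribosomal RNA and 4sU RNA was not, so the ratio is relative to the mouse genes of each library.

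**Figure D4:**
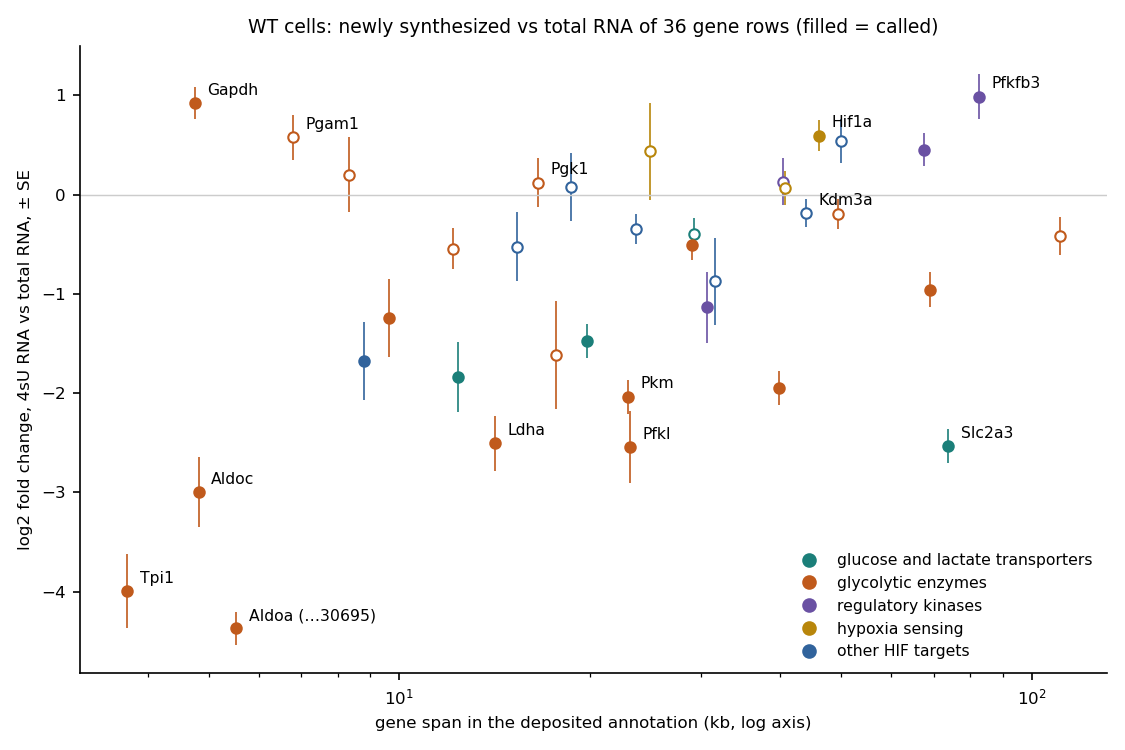
Log2 fold change of WT 4sU over WT total RNA (y axis) against the genomic span of each member in kb (x axis, log scale), coloured by role. Aldoa (-4.37) and Tpi1 (-3.99) lie lowest among the short genes, and Gapdh (0.92), also short, lies high.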

How the data were processed

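Per the labels, newly synthesized (4sU) RNA and WT total RNA were sequenced after a stranded library preparation, with labelled Drosophila S2 (project 1) or S. pombe (projects 2 and 3) cells as spike-in. Raw counts of reads per Ensembl gene, for mouse and for spike-in genes, were deposited for each library. The authors also deposited a normalized signal, other annotation (median transcript length among it), and their own tests as a log2 fold change with a p-value. Named in the submitters' processing notes are the genome builds ASM294v2, sacCer3, BDGP6 and mm10, and the tools DESeq2 1.16.1, HTSeq 0.6.1p1, STAR 2.5.3a, Bowtie2 2.2.8, cutadapt 1.10 and bcl2fastq 2.17.1.14. The strand and intron settings of counting are not given in the sources used here.

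The deposited raw counts were analysed in R 4.3.3. Genes passed filterByExpr at 10 reads, TMM factors came from mouse genes, and each project was fitted over all genes with edgeR 4.0.16 (limma 3.58.1), using its robust quasi-likelihood test and Benjamini-Hochberg adjustment at 0.05. DESeq2 1.42.0 was an alternative, and Python 3.11.15, pandas 2.3.3 and matplotlib 3.10.9 made tables and figures. Adjusted p-values are from edgeR unless another tool is named. The script was tested on simulated data. The members and gene lists were chosen with earlier results of these data known. Each member was given per library where it passed a test against WT or had the highest or lowest fold change of its role group. For 4sU against total RNA the 4 highest and 4 lowest members were named, and further pathway genes where they passed a test against WT. WT 4sU and total RNA are paired by line, since the labels give the same 2 lines to both, and the deviations of their replicates correlated at 0.51 over 14494 genes. Promoters came from RefSeq (GRCm38.p6) and shared windows from GENCODE M21 transcripts. Read counts limit the precision of low members.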

Additional observations from a re-analysis of the deposited data

Results flagged for a closer look

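The direct test between AID-Yeats2 and Supt7l-/- clones, which were sequenced together and share their WT libraries, called 12 of 34 members, 7 higher and 5 lower in AID-Yeats2. Of 78 further pathway genes, it called 8 higher and 3 lower. Over all 14513 genes tested, 8.95% were called higher and 7.32% lower. The values are given of all 12 members and of the 5 pathway genes that had also passed a test against WT. Line background and mutation cannot be told apart in these differences, since the sample titles do not say which clones carry Tir1/BirA. P4ha2 differed by -1.45 (log2 of AID-Yeats2 over Supt7l-/-), and its log2 fold changes against WT were -0.14 in AID-Yeats2 and 1.32 in Supt7l-/-. Bnip3l differed by -0.58, with -0.25 and 0.33 against WT in the same order of mutants. Pgam1 differed by -0.48 (-0.39 and 0.09 against WT), Pdk3 by -0.28 (-0.24 and 0.04) and Hif1a by -0.25 (-0.17 and 0.09).

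On the other side, the main Aldoa ID differed by 0.31 (0.29 in AID-Yeats2 and -0.02 in Supt7l-/- against WT), Pfkfb3 by 0.44 (-0.02 and -0.46), Kdm3a by 0.48 (0.24 and -0.24) and Tpi1 by 0.78 (0.01 and -0.77). Ldhb differed by 0.85 (-0.18 and -1.03), Egln3 by 0.89 (0.52 and -0.37) and Bnip3 by 1.08 (0.85 and -0.24). Of the pathway genes, Tfrc differed by 0.40 (-0.08 and -0.48), Mxi1 by 0.54 (0.38 and -0.16), Plod2 by 0.58 (0.75 and 0.17), Rpe by 0.96 (0.41 and -0.55) and Epas1 by 1.02 (0.59 and -0.43).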

How the results depend on the processing

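With 2 libraries a group, counts of members past the threshold moved with the settings. Of 2372 single-gene values under alternatives, 1978 kept their direction and their side of the threshold, 159 missed it in both fits with the other sign, 122 gained and 112 lost a call, and 1 called value changed sign: Mxi1 in AID-Yeats2 read -0.12 under spike-in scaling. Without a filter on low counts, higher members numbered 1 in AID-Tada3, 1 in AID-Yeats2 and 2 in Supt7l-/-, lower ones 2 in AID-Yeats2, 7 in Supt7l-/- and 1 in AID-Zzz3, and Tir1/BirA called 3. Under spike-in scaling, lower members numbered 1 in AID-Tada3, 16 in AID-Yeats2, 4 in Supt7l-/- and 14 in AID-Zzz3, higher ones 0 in Supt7l-/-, and AID-Yeats2 against Supt7l-/- gave 1. The joint fit gave 0 higher and 0 lower in Supt7l-/- and 1 lower in AID-Zzz3. DESeq2 gave 1 lower in AID-Zzz3 and 4 between AID-Yeats2 and Supt7l-/-. Their causes were not tested. Leaving out 1 library at a time gave 0 to 5 higher and 0 to 4 lower in AID-Tada3, 0 to 2 and 0 to 6 in AID-Yeats2, 0 to 2 and 0 to 9 in Supt7l-/-, 0 to 0 and 0 to 1 in AID-Zzz3, 2 to 5 and 14 to 18 for 4sU against total RNA, 2 to 16 between AID-Yeats2 and Supt7l-/-, and 0 to 3 for Tir1/BirA. A fit that leaves a group with 1 library assumes that it varies like the other groups. The share of all genes called in these fits was not counted, so the ranges have no background beside them.

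With line as a replicate block, 4sU against total RNA gave 6 higher and 22 lower. AID-Yeats2 and Supt7l-/- clones share only a number (correlation of deviations 0.042), and blocking on it gave 18. Without the project block, Tir1/BirA gave 0. Other pairings could not be made because clone numbers have no WT counterpart. Tests of differences of the AID-Tada3 effect, and of Supt7l-/- from AID-Zzz3, were added after seeing the data. Low counts limit Slc16a3, Ankrd37, Eno2, Aldoc and the upstream Aldoa ID.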
